A study of Mus musculus with 12 samples.

Results

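Wheel running in mice that carry the mutation of spinocerebellar ataxia type 1 (SCA1) was described by comparing the cerebellum of 3 SCA1 exercise mice with that of 3 SCA1 sedentary mice, which are 6 of the 12 libraries of the series. The members were chosen by their labels alone, genotype Het with the treatment Exercise or Sedentary. The other 6 libraries came from wild-type (WT) mice, 3 sedentary and 3 exercise, and serve here only as a reference. Bulk RNA of each cerebellum was sequenced after depletion of ribosomal RNA, and the read pairs on each gene were counted.

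All 6 SCA1 mice carried the Atxn1 154Q/2Q knock-in, which is 1 expanded allele beside 1 normal allele at the gene's own locus, so the expanded allele is present in every cell and in both groups. They were littermates of the WT mice on C57BL/6J, of both sexes, and were 16 weeks old. SCA1 exercise mice lived alone with unrestricted access to a running wheel for 12 weeks from the age of 4 weeks, and the wheels were taken away before the behavioural tests that preceded tissue collection. SCA1 sedentary mice had no wheel and lived in groups, so running and single housing cannot be told apart in this comparison. Each library is 1 mouse, and 2 samples, whose identity was not used here, had less intact RNA and were prepared with other fragmentation and amplification settings. Sequencing measured the tissue after the last behavioural test and not during running.

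Ataxin-1 binds the transcriptional repressor Capicua in a nuclear complex, and its expanded form disturbs the expression of Purkinje cell genes, among them genes for calcium handling and for the metabotropic glutamate receptor pathway. Purkinje cells are the only output neurons of the cerebellar cortex and are the cells best known to fail in SCA1. Voluntary running is known for inducing neurotrophins such as BDNF, immediate early genes and mitochondrial genes in other brain regions.

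The cerebellar markers Pcp2, Calb1, Gabra6, Fat2, Cbln1, En2 and Gdf10 were all present, from 63.6 CPM (counts per 1000000 counts on genes, after scaling) for the lowest value of Gdf10 to 2295 CPM for the highest value of Fat2 in the 6 SCA1 libraries. Each library held 55059831 to 61003135 read pairs, of which 20556802 to 28383723 were counted on genes. Read pairs that mapped to several places made up 6.38% of the library of sedentary mouse 16 and 6.33% of that of exercise mouse 55, against 2.08% to 2.69% in the other 4 SCA1 libraries and 2.26% to 3.46% in the WT libraries. The same 2 libraries held 1288 and 1573 counts on 14 Hox genes, which are expressed in the brainstem and not in the cerebellum, against 4 to 40 counts in the other 4. By Xist and chromosome Y genes, sedentary mice 16 and 195 were male and mouse 194 was female, whereas exercise mice 55 and 122 were female and mouse 198 was male. Among WT mice, all sedentary mice and exercise mice 121 and 197 were male, and exercise mouse 201 was female. Sex was thus unbalanced in the comparisons with WT mice as well. Fits without mice 16 and 55, and with chromosome Y expression or percent multimapping as a covariate, are given beside some results they move. The part of the brainstem markers in the results was not tested.

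**Figure D1:**
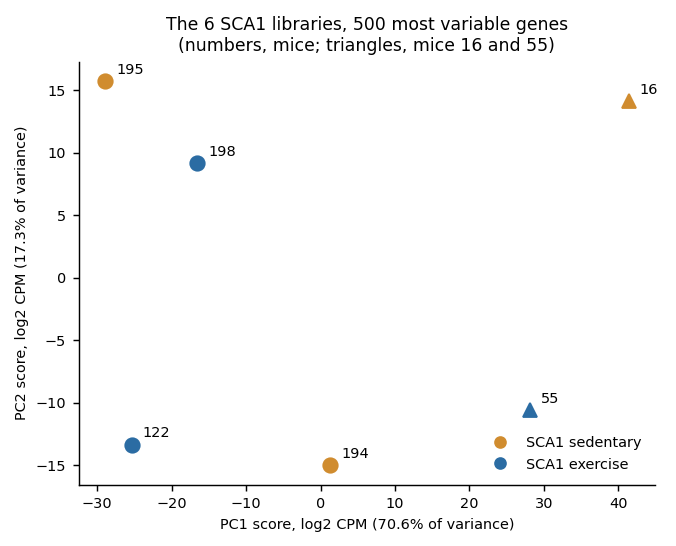
Principal components of log2 CPM of the 500 most variable genes in the 6 SCA1 libraries, with PC1 (70.6% of the variance) on the horizontal axis, PC2 (17.3%) on the vertical axis and 1 point per library, triangles being mice 16 and 55. Sedentary mouse 16 (PC1 score 41.4) and exercise mouse 55 (28.2) lie at one end of PC1, and sedentary mouse 195 (−28.9) and exercise mouse 122 (−25.4) at the other, so that the groups overlap.

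The 2 groups did not separate over the transcriptome. The root mean square difference of log2 CPM between 2 libraries had a median of 0.620 over the 6 pairs within a group and of 0.497 over the 9 pairs between the groups. The most distant pair was within the sedentary group, mice 16 and 195, at 0.897. Sedentary mouse 16 and exercise mouse 55, by contrast, differed by 0.435.

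No gene was called between SCA1 exercise and SCA1 sedentary mice by edgeR's quasi-likelihood test, which is 0.0% of the 20341 genes tested. For a call, the p adjusted by the Benjamini-Hochberg method had to be under 0.05 and the log2 fold change (log2FC, exercise over sedentary) beyond 0.5 in either direction, and the smallest adjusted p was 0.999. Without adjustment 441 genes (2.17%) had a p under 0.05, of which 242 (1.19%) were higher and 199 (0.978%) were lower in exercise mice. These included 299 of 14642 protein-coding genes and 91 of 2455 long noncoding RNA genes. DESeq2 on the same 12 libraries called 1 gene, Gcnt1 (0.00285% of 35116 genes), and gave 493 genes with an unadjusted p under 0.05. The number at an unadjusted p under 0.05 depended on single libraries and was 2326 without sedentary mouse 16, 1735 without sedentary mouse 195 and 1169 without exercise mouse 55, with no gene called in any of these. It was 521 with chromosome Y expression as a covariate, 434 with chromosomes X and Y left out and 1368 with percent multimapping as a covariate, again with no gene called.

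The median log2FC of all genes tested was −0.01, with quartiles of −0.15 and 0.12, and 5% of genes lay below −0.57 and 5% above 0.42. The 95% interval of the log2FC lay within 0.5 of 0 for 7745 genes (38.1%) and within 1 for 14587 genes (71.7%), and for the remaining genes the interval reached beyond 1. The 3 exercise libraries were all above the 3 sedentary libraries for 494 genes (2.43%) and all below them for 421 genes (2.07%), together 4.5% of the genes tested. With 3 mice a group the smallest two-sided p that exact permutation allows is 0.1, so the unadjusted p values below are those of edgeR.

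**Figure D2:**
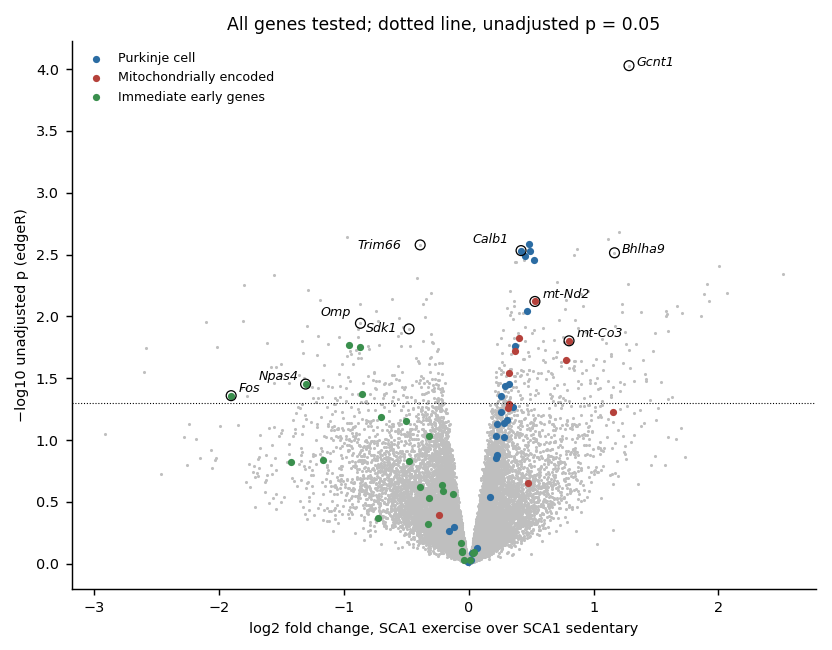
Each point is 1 of the 20341 genes tested, with the log2FC of SCA1 exercise over SCA1 sedentary mice on the horizontal axis and −log10 of edgeR's unadjusted p on the vertical axis. Coloured points are members of the Purkinje cell, mitochondrially encoded and immediate early gene lists, rings mark named genes and the dotted line is an unadjusted p of 0.05. Purkinje and mitochondrially encoded genes lie mostly to the right of 0 and immediate early genes mostly to the left, and no gene passed the adjusted threshold.

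Values per library are given below in CPM, first for sedentary mice 16, 194 and 195 and then for exercise mice 55, 122 and 198. Gcnt1 (ENSMUSG00000038843, chromosome 19 of GRCm39 from 17303505 to 17350208), which encodes a glucosaminyltransferase that branches O-linked glycans, had the smallest p of all genes. Its level was 2.12, 2.17 and 2.31 CPM in sedentary and 7.30, 4.67 and 4.07 CPM in exercise mice, counted from 48 to 184 read pairs. The groups did not overlap, and the exercise mouse with the highest value was mouse 55. The means were 2.20 ± 0.099 and 5.35 ± 1.7 CPM (SD, n = 3 each), and the log2FC was 1.28 (SE 0.23, 95% interval 0.79 to 1.77, unadjusted p = 9.36e-05 by edgeR). The adjusted p was 0.999 by edgeR and 0.00894 by DESeq2, the latter being the lowest of 24 alternatives, over which the adjusted p ran up to 1.00 and the log2FC from 0.96 to 1.43. Without mice 16 and 55 the log2FC was 0.96.

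WT sedentary mice had 8.27, 7.90 and 8.60 CPM of Gcnt1 and WT exercise mice 7.80, 8.85 and 10.6 CPM. The level in SCA1 exercise mice thus lay between those of SCA1 sedentary and WT sedentary mice without reaching the WT range. Gcnt1 was picked by its p against the SCA1 sedentary libraries, which both comparisons share, and this favours such a position. The log2FC of exercise in WT mice was 0.14, and the difference between the SCA1 and WT log2FC was 1.14 (interaction, unadjusted p = 0.00289 by edgeR). DESeq2 gave the same difference an adjusted p of 0.633, so it was not called by either tool.

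Among named protein-coding and long noncoding genes of at least 1 CPM whose groups did not overlap, the 12 higher genes with the smallest unadjusted p held 5 genes of the Purkinje cell list, Ppp1r17, Calb1, Pcp4, Car8 and Stk17b. Non-overlap chose these genes, so it is a description and not a result about them. Ppp1r17, which encodes the Purkinje cell protein phosphatase inhibitor G-substrate, had 62.9, 70.8 and 74.9 CPM in sedentary and 100.5, 102 and 88.4 CPM in exercise mice (log2FC 0.48, SE 0.13, unadjusted p = 0.00262). Calb1, which encodes the calcium buffer calbindin, had 315, 339 and 393 CPM in sedentary and 466, 491 and 443 CPM in exercise mice (log2FC 0.42, SE 0.11, unadjusted p = 0.00293). Pcp4, which encodes a small calmodulin-binding protein, had 10.4, 10.7 and 11.3 CPM in sedentary and 18.0, 13.9 and 13.5 CPM in exercise mice (log2FC 0.49, SE 0.13, unadjusted p = 0.00294). WT sedentary mice had 135, 133 and 97.5 CPM of Ppp1r17, 634, 669 and 543 CPM of Calb1 and 25.7, 23.9 and 23.3 CPM of Pcp4. The SCA1 exercise libraries thus lay between the SCA1 sedentary and the WT sedentary libraries for Calb1 and Pcp4, and overlapped the lowest WT sedentary library for Ppp1r17. Choosing genes that differ from the SCA1 sedentary libraries, which both comparisons share, favours such a position.

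Car8 encodes a carbonic anhydrase-related protein that binds the inositol trisphosphate receptor. Its level was 627, 724 and 730.2 CPM in sedentary and 1027, 986 and 830.2 CPM in exercise mice (log2FC 0.45, SE 0.12, unadjusted p = 0.00326), against 1175, 1275 and 1019.6 CPM in WT sedentary mice. Stk17b, which encodes a serine/threonine kinase, had 33.5, 27.7 and 30.9 CPM in sedentary and 51.4, 43.7 and 37.4 CPM in exercise mice (log2FC 0.52, SE 0.15, unadjusted p = 0.00353). For both genes exercise mouse 198 was the lowest of its group and nearest to the sedentary mice.

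Of the other higher genes, Kitl encodes the ligand of the receptor Kit, which cerebellar interneurons carry. It had 79.7, 75.6 and 96.3 CPM in sedentary and 112, 131 and 111 CPM in exercise mice (log2FC 0.49, SE 0.13, unadjusted p = 0.00308). Cep76, which encodes a centrosomal protein, had 60.0, 67.0 and 70.1 CPM in sedentary and 96.5, 88.3 and 76.4 CPM in exercise mice (log2FC 0.41, SE 0.11, unadjusted p = 0.0029). Lrrn3, which encodes a neuronal leucine-rich repeat protein, had 43.5, 35.1 and 38.5 CPM in sedentary and 48.5, 61.9 and 48.8 CPM in exercise mice (log2FC 0.44, SE 0.12). These 3 genes were abundant, whereas the remaining 3 were near the lower limit of 1 CPM. Rbks, which encodes ribokinase, had 1.41, 1.44 and 1.25 CPM in sedentary and 2.46, 2.25 and 2.66 CPM in exercise mice (log2FC 0.84, SE 0.23). Bhlha9, which encodes a basic helix-loop-helix transcription factor, had 0.883, 0.977 and 1.59 CPM in sedentary and 3.14, 2.50 and 2.06 CPM in exercise mice (log2FC 1.17, SE 0.32). BC037039 had 1.38, 1.15 and 1.35 CPM in sedentary and 2.46, 2.46 and 2.14 CPM in exercise mice (log2FC 0.86, SE 0.23).

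The 12 lower genes had a log2FC from −0.30 for Syt3 to −0.87 for Omp, beside 0.41 for Cep76 to 1.28 for Gcnt1 among the 12 higher genes. Trim66, which encodes a tripartite motif chromatin protein, had the smallest p, with 78.5, 61.2 and 65.7 CPM in sedentary and 52.1, 51.0 and 53.8 CPM in exercise mice (log2FC −0.39, SE 0.10, unadjusted p = 0.00264). WT sedentary mice had 41.6, 43.6 and 44.8 CPM of Trim66, below both SCA1 groups. Sdk1, which encodes the synaptic adhesion molecule sidekick 1, had 20.0, 18.8 and 18.7 CPM in sedentary and 14.3, 13.7 and 13.3 CPM in exercise mice (log2FC −0.48, SE 0.16, unadjusted p = 0.0126). Its level in WT sedentary mice was 5.62, 6.54 and 9.17 CPM, so that SCA1 exercise mice lay between the 2 sedentary groups for both Trim66 and Sdk1. The choice of these genes favours this position too, and it did not hold for every lower gene (Tie1, below).

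Synaptic genes among the lower genes were Grik5, a kainate receptor subunit, and Syt3, a synaptotagmin of the calcium-dependent vesicle machinery. Grik5 had 137, 152 and 131 CPM in sedentary and 117, 99.5 and 115 CPM in exercise mice (log2FC −0.35, SE 0.11, unadjusted p = 0.00723). Syt3 had 70.5, 69.1 and 61.4 CPM in sedentary and 56.6, 52.7 and 54.1 CPM in exercise mice (log2FC −0.30, SE 0.09, unadjusted p = 0.0065). Grik5 was 1 of the 43 glutamate and GABA receptor genes tested and the only one of them with an unadjusted p under 0.05.

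Vascular genes among the lower genes were Tie1, an endothelial receptor tyrosine kinase, and Fgd5, an endothelial exchange factor for Cdc42. Tie1 had 11.1, 16.5 and 11.2 CPM in sedentary and 8.49, 8.01 and 10.3 CPM in exercise mice (log2FC −0.53, SE 0.18, unadjusted p = 0.0122). Its log2FC of SCA1 sedentary over WT sedentary mice was 0.34, so in the fit SCA1 exercise mice lay below both sedentary groups. Fgd5 had 10.9, 12.6 and 10.1 CPM in sedentary and 6.39, 7.59 and 7.93 CPM in exercise mice (log2FC −0.62, SE 0.19, unadjusted p = 0.00719). Asl, which encodes the urea cycle enzyme argininosuccinate lyase, had 21.5, 20.2 and 22.4 CPM in sedentary and 15.2, 14.8 and 18.0 CPM in exercise mice (log2FC −0.42, SE 0.12). The other 5 lower genes were Tmem132e (log2FC −0.37), the deubiquitinase gene Usp35 (−0.35), Zfp566 (−0.56), Megf6 (−0.73) and Omp (−0.87). All 24 of these higher and lower genes kept the sign of their log2FC under each of the 24 alternatives run. They were chosen for groups that do not overlap, so leaving out mice could hardly turn a sign, and nothing is concluded from it. EdgeR gave none of them an adjusted p under 0.398 in any setting.

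**Figure D3:**
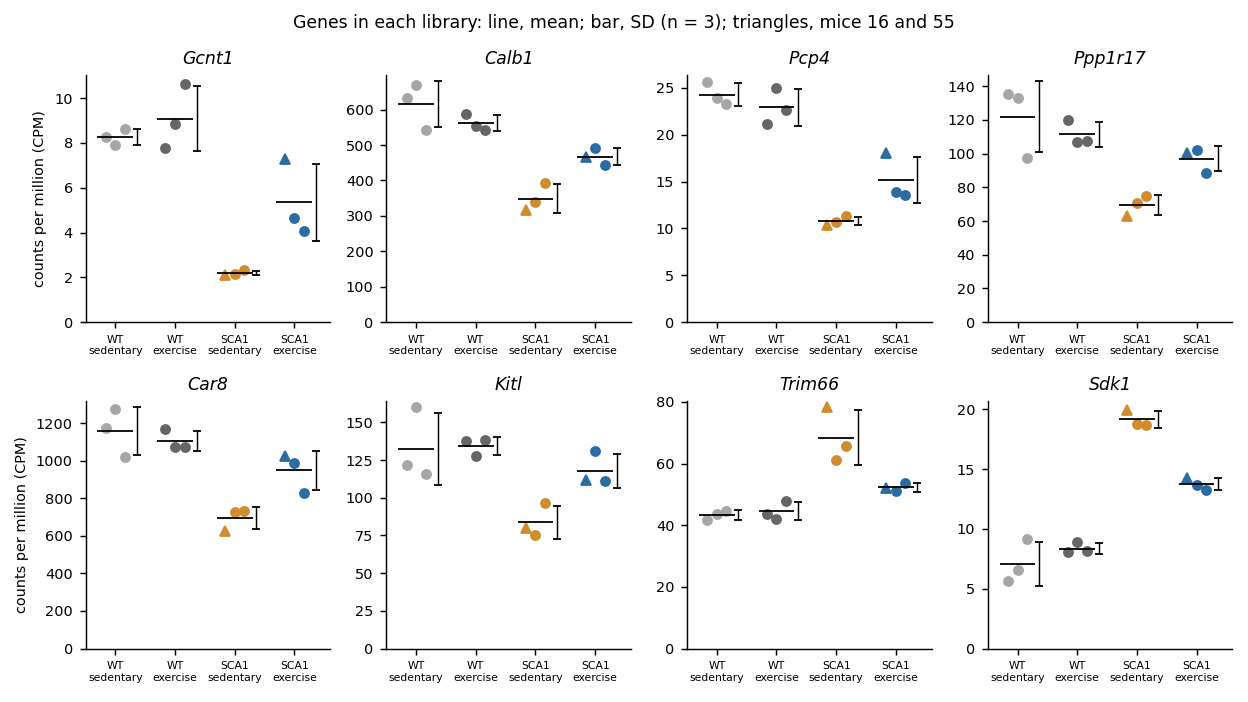
CPM of Gcnt1, Calb1, Pcp4, Ppp1r17, Car8, Kitl, Trim66 and Sdk1 in each of the 12 libraries by group, with a line at the mean, a bar for the SD (n = 3) and triangles for mice 16 and 55; each axis starts at 0. In all 8 genes the SCA1 exercise libraries do not overlap the SCA1 sedentary libraries, and Gcnt1 lies at 2.12 to 2.31 CPM in sedentary and at 4.07 to 7.30 CPM in exercise mice.

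Promoter sequences (250 bases before to 50 bases after an annotated start, RefSeq, GRCm38.p6) are shown for the gene with the smallest p, for a Purkinje cell gene and for the immediate early gene with the largest difference. Capitals mark a TATA box, a half-site of the nuclear receptor Rora or a Capicua octamer, each searched on both strands. The TATA box was searched as the letters TATAAA. For the half-site of Rora, which Purkinje cells express, the search was for the letters AGGTCA with no spacing rule. The Capicua octamers were TGAATGAA, TGAATGGA, TCAATGAA and TCAATGGA. Gcnt1 has its first window at chr19:17372795-17373094 on the minus strand, Pcp4 at chr16:96467356-96467655 on the plus strand and Fos at chr12:85473640-85473939 on the plus strand.
Gcnt1: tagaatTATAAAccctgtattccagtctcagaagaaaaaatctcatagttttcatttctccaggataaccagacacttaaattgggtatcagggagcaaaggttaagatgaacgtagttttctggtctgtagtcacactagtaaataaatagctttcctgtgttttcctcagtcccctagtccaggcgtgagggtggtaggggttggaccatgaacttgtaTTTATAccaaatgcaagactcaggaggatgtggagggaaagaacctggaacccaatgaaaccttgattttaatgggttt
Pcp4: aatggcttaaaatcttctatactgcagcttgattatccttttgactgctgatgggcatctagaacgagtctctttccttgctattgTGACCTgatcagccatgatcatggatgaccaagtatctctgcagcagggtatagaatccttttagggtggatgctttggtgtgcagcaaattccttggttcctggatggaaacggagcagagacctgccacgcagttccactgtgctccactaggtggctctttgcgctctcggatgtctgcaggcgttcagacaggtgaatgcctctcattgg
Fos: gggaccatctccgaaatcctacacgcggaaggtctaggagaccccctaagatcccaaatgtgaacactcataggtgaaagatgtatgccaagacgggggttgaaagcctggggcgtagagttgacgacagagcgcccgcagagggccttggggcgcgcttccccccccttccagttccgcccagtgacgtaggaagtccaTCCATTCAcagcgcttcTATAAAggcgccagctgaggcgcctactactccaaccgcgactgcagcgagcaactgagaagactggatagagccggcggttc
Gcnt1 has 3 windows, and in the one shown a TATA box lies 244 bases before its start and another, on the opposite strand, 29 bases before it. The other 2 windows hold none of these motifs. Pcp4 holds a Rora half-site on the opposite strand 164 bases before the start. Fos holds a Capicua octamer on the opposite strand 50 bases and a TATA box 33 bases before the start.

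Of the 27025 genes with a promoter window, 18.1% held a Rora half-site, 4.45% a Capicua octamer and 15.7% a TATA box. The half-site was in 5 of the 16 Purkinje cell genes that matched a window (31.2%), Dner, Homer3, Pcp2, Pcp4 and Rgs8. A Capicua octamer was in 4 of the 21 immediate early genes that matched (19%), Dusp6, Fos, Fosb and Nr4a1, and in Pcp2 alone of the Purkinje cell genes. Of the 12 higher genes 6 matched, and the Rora half-site was in Pcp4 alone and a Capicua octamer in none. The 10 matched lower genes held neither. A match is a run of letters in this window and does not show that a factor binds there.

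The Purkinje cell list had 26 genes, all of them tested, of which 23 were higher and 3 were lower in SCA1 exercise mice. Their median log2FC was 0.27, beside −0.01 for all genes, and 10 of the 26 had an unadjusted p under 0.05 and were higher, beside 1.19% of all genes, with none lower. None was called after adjustment. In bulk tissue, a larger share of Purkinje cells and more RNA of these genes per cell cannot be told apart. The mean log2 CPM of the list, relative to the SCA1 sedentary mean, was −0.07, 0.07 and 0.00 in sedentary and 0.44, 0.23 and 0.08 in exercise mice. Exercise mouse 55 was thus farthest from the sedentary group and exercise mouse 198 barely outside it. WT sedentary mice were at 0.48, 0.57 and 0.50 and WT exercise mice at 0.50, 0.46 and 0.41.

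The values of the list depended on which mice were included. Without mice 16 and 55 its median log2FC was 0.09, with 6 genes higher at an unadjusted p under 0.05, beside 3.69% of all genes in that setting. Without mouse 55 alone the median was 0.19 with 6 such genes (2.01% of all genes), and without mouse 194 it was 0.37 with 16 (1.28%). With percent multimapping as a covariate the median was 0.27 with 16 such genes (3.22% of all genes), and with chromosome Y expression 0.24 with 7 (1.38%). The difference between the SCA1 and WT responses had a median of 0.30 over the list, with 8 genes at an unadjusted p under 0.05, all higher in SCA1, beside 3.78% of all genes in either direction.

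Within the list, genes of the inositol trisphosphate and calcium pathway had different spreads. Itpr1, the inositol trisphosphate receptor of Purkinje cells, had 2754, 3974 and 3692 CPM in sedentary and 4678, 4457 and 3724 CPM in exercise mice (log2FC 0.30, SE 0.15, unadjusted p = 0.0694), so that the groups overlapped. Inpp5a, a phosphatase that removes inositol trisphosphate, had 197, 271 and 259 CPM in sedentary and 326, 297 and 265 CPM in exercise mice (log2FC 0.29, unadjusted p = 0.0365). Kcnma1, the BK potassium channel, had 309, 296 and 355 CPM in sedentary and 428, 381 and 341 CPM in exercise mice (log2FC 0.26, unadjusted p = 0.0441). In Itpr1 and Inpp5a the lowest sedentary library was mouse 16 and the highest exercise library was mouse 55. Without these mice the log2FC was 0.09 for Itpr1, 0.08 for Inpp5a and 0.15 for Kcnma1.

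Rgs8 and Pde5a, of G protein and cyclic nucleotide signalling, and the list member Fam107b also overlapped between the groups. Rgs8, a regulator of G protein signalling, had 645, 771 and 734 CPM in sedentary and 1068, 851 and 765 CPM in exercise mice (log2FC 0.32, unadjusted p = 0.0354). Pde5a, a cyclic GMP phosphodiesterase, had 62.3, 80.8 and 89.6 CPM in sedentary and 112, 101 and 87.4 CPM in exercise mice (log2FC 0.37, unadjusted p = 0.0173). Fam107b had 46.6, 53.4 and 60.5 CPM in sedentary and 83.7, 82.0 and 56.4 CPM in exercise mice (log2FC 0.47, unadjusted p = 0.00896). In Rgs8, Pde5a and Fam107b exercise mouse 198 lay inside the sedentary range, whereas the other exercise mice lay above it. Mouse 16 had the lowest and mouse 55 the highest value of each. Over the alternatives the log2FC fell to as little as 0.10 for Rgs8, 0.14 for Pde5a and 0.28 for Fam107b.

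Pcp2, a G protein modulator that marks Purkinje cells, had 89.3, 151 and 105 CPM in sedentary and 170.5, 134 and 137 CPM in exercise mice (log2FC 0.36, unadjusted p = 0.0537), and its log2FC was 0.08 without mice 16 and 55. Slc1a6, the glutamate transporter of Purkinje cells, had 80.4, 106 and 100.3 CPM in sedentary and 116, 118 and 101 CPM in exercise mice (log2FC 0.23, 95% interval −0.03 to 0.48). The lowest value of the list was that of the transcription factor Foxp2, at 20.5, 11.3 and 12.8 CPM in sedentary and 13.0, 14.8 and 12.1 CPM in exercise mice (log2FC −0.16), and its sign turned without mouse 16.

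Mitochondrially encoded genes specify core subunits of the respiratory chain and of ATP synthase. Of the 13 protein genes of the mitochondrial genome 11 were tested, and mt-Nd4l and mt-Atp8 had at most 2 counts in any SCA1 library. Of these 11 genes 10 were higher, with a median log2FC of 0.40, 6 had an unadjusted p under 0.05 and 7 did not overlap between the groups, beside 2.43% of all genes that were higher without overlap. None was called after adjustment. The genes are cut from shared transcripts and are not independent of each other. The 7 include mt-Co2, mt-Co3 and mt-Atp6, and the 6 include mt-Co3 and mt-Atp6, whose low counts are uncertain (below).

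The share of all counts that fell on the 37 mitochondrial genes was 1.61%, 1.37% and 2.05% in sedentary and 2.19%, 2.15% and 2.53% in exercise mice. Each exercise library was thus above each sedentary one. The share was 2.64%, 2.61% and 2.86% in WT sedentary and 2.43%, 2.14% and 2.13% in WT exercise mice, where the order was the opposite. The 37 genes include others than the 11 protein genes tested. The summed CPM of those 11 was 12108, 10617 and 13424 in sedentary and 15869, 15216 and 14684 in exercise mice. In WT mice the sum was 18892, 16658 and 14645 in sedentary and 16307, 13915 and 14110 in exercise mice, so the WT groups overlapped. The median log2FC of the 11 genes in WT mice was −0.17, and the difference between the SCA1 and WT responses had a median of 0.57, with 6 of 11 genes at an unadjusted p under 0.05, beside the same 3.78%.

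Among the abundant members the smallest p values were those of mt-Nd2, mt-Nd1 and mt-Nd4, which encode subunits of complex I, the first enzyme of the respiratory chain. mt-Nd2 had 782, 853 and 1209 CPM in sedentary and 1397, 1449.5 and 1259.8 CPM in exercise mice (log2FC 0.53, SE 0.17, unadjusted p = 0.00757). mt-Nd1 had 1235, 1135 and 1545.5 CPM in sedentary and 1778, 1714.5 and 1690.1 CPM in exercise mice (log2FC 0.40, SE 0.14, unadjusted p = 0.0148). mt-Nd4 had 682, 681 and 886 CPM in sedentary and 1045, 979.5 and 879 CPM in exercise mice (log2FC 0.37, unadjusted p = 0.0191). In mt-Nd4 exercise mouse 198 fell just below sedentary mouse 195, so the groups overlapped, which they did not in mt-Nd1 and mt-Nd2. mt-Nd5 had 1531, 1441 and 1889 CPM in sedentary and 2151, 2116 and 1771 CPM in exercise mice (log2FC 0.31, unadjusted p = 0.0549). mt-Nd6, the one protein gene on the opposite strand, was the only member with a lower value, at 405, 213 and 164 CPM in sedentary and 286, 191 and 185 CPM in exercise mice (log2FC −0.24), and its sign turned with unstranded counts.

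The cytochrome b gene of complex III, mt-Cytb, had 1669.5, 1715 and 2073 CPM in sedentary and 2529, 2184 and 2105 CPM in exercise mice (log2FC 0.32, unadjusted p = 0.0288). The catalytic subunit gene of complex IV, mt-Co1, had 5801, 4578 and 5654 CPM in sedentary and 6678, 6578 and 6790.1 CPM in exercise mice (log2FC 0.32, unadjusted p = 0.0512). Both genes separated the groups. Counts of mt-Atp6 and mt-Co3 are uncertain, since they were near 1 CPM beside at least 4578 CPM for mt-Co1. The same holds for mt-Co2 and mt-Nd3, which were also far less abundant than the other members. Read pairs that also match a near-identical copy elsewhere in the genome were not counted. The highest log2FC of the list was that of mt-Nd3. mt-Co3 had 0.742, 0.722 and 1.06 CPM in sedentary and 1.39, 1.5 and 1.5 CPM in exercise mice (log2FC 0.80, unadjusted p = 0.0158), and mt-Atp6 had 0.459, 0.595 and 0.818 CPM and 1.03, 1.13 and 1.03 CPM (log2FC 0.78, unadjusted p = 0.0224).

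The median of the mitochondrially encoded genes was 0.38 without mice 16 and 55, where 3 genes were higher at an unadjusted p under 0.05 (3.69% of all genes), and 0.32 without mouse 194, where 1 gene was (1.28%). Without mouse 122 it was 0.34 with 3 genes (0.803%), without mouse 195 it was 0.55 with 9 genes (4.65%), and without mouse 55 it was 0.39 with 4 genes (2.01%). With percent multimapping as a covariate it was 0.41 with 9 genes (3.22%). Genes of the same respiratory complexes are also encoded in the nucleus. Of 75 such genes 40 were higher and 35 lower, with a median log2FC of 0.01 and none at an unadjusted p under 0.05. Their median was −0.30 in WT mice, and 0.23 in SCA1 mice without mouse 16, where 15 genes were higher at an unadjusted p under 0.05, beside 5.57% of all genes.

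Immediate early genes, which neurons transcribe within minutes of activity, had lower values in SCA1 exercise mice. Of 25 genes tested 22 were lower and 3 higher, with a median log2FC of −0.33, and 5 had an unadjusted p under 0.05, beside 0.978% of all genes that were lower. No member separated the groups. The mean log2 CPM of the list, relative to the SCA1 sedentary mean, was 0.58, −0.01 and −0.57 in sedentary and −0.16, −0.68 and −0.39 in exercise mice. The sedentary libraries thus spanned a wider range than the exercise libraries, with mouse 16 at the top. Without mouse 16 the median log2FC was 0.01, and without mouse 195 it was −0.52. With percent multimapping as a covariate it was −0.31, with 8 genes lower at an unadjusted p under 0.05 (3.5% of all genes).

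Fos, a subunit of the AP-1 transcription factor, had 45.9, 15.5 and 2.55 CPM in sedentary and 7.06, 3.0 and 7.07 CPM in exercise mice (log2FC −1.90, SE 0.85, unadjusted p = 0.0438), and its log2FC was −0.66 without mouse 16. Npas4, a transcription factor induced by calcium entry, had 6.57, 6.46 and 2.17 CPM in sedentary and 1.94, 0.959 and 3.26 CPM in exercise mice (log2FC −1.31, unadjusted p = 0.0353). Egr4, a zinc finger factor, had 4.80, 6.16 and 2.02 CPM in sedentary and 2.46, 2.29 and 1.93 CPM in exercise mice (log2FC −0.96, unadjusted p = 0.0169). In these 3 genes sedentary mouse 195 was as low as the exercise mice. Junb had 15.1, 7.81 and 5.44 CPM in sedentary and 5.75, 3.88 and 5.96 CPM in exercise mice (log2FC −0.87, unadjusted p = 0.0178). The orphan nuclear receptor gene Nr4a1 had 34.4, 19.5 and 8.81 CPM in sedentary and 13.7, 9.34 and 11.9 CPM in exercise mice (log2FC −0.85, unadjusted p = 0.0423). Arc, which encodes a synaptic protein, had 30.6, 22.7 and 17.9 CPM in sedentary and 18.7, 22.1 and 21.1 CPM in exercise mice (log2FC −0.20, 95% interval −0.57 to 0.17).

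**Figure D4:**
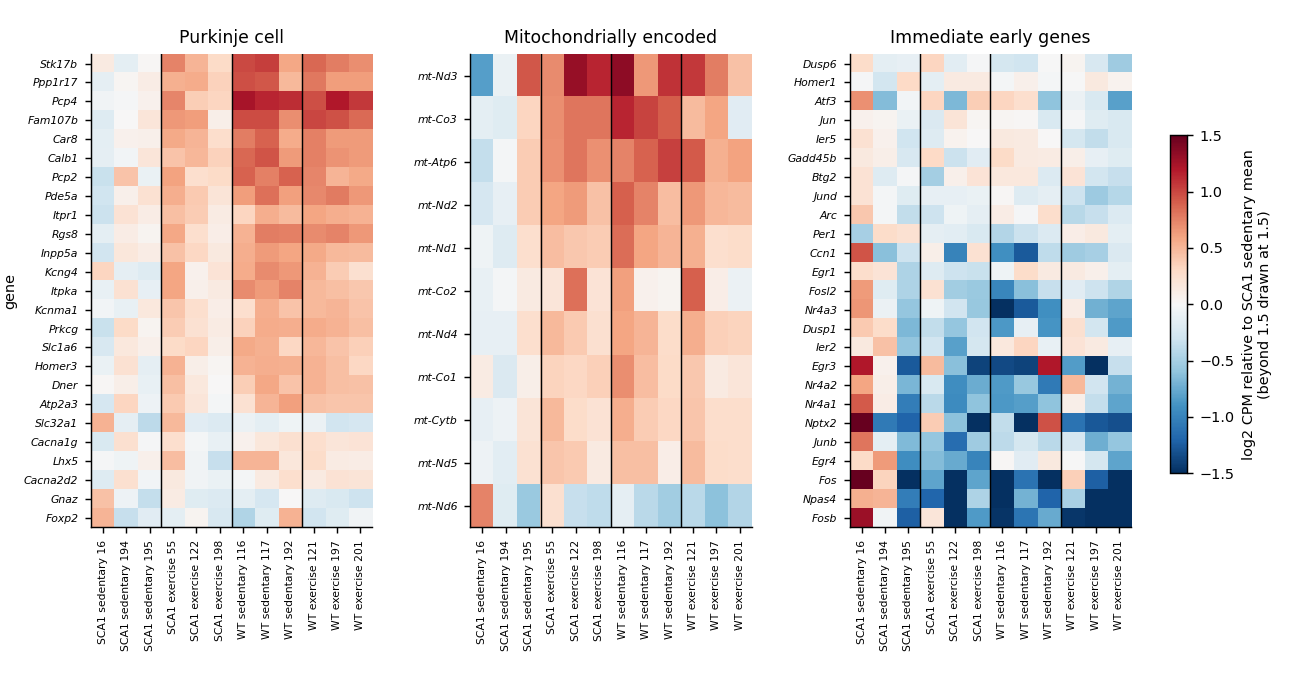
Heat map of log2 CPM, relative to the mean of the SCA1 sedentary libraries, for tested genes (rows) of the Purkinje cell, mitochondrially encoded and immediate early gene lists in the 12 libraries (columns); values beyond 1.5 are drawn at 1.5. Of the 26 Purkinje cell genes tested 23 have a log2FC above 0 for SCA1 exercise over SCA1 sedentary mice, as do 10 of 11 mitochondrially encoded genes. Immediate early genes are on average, but not each of them, highest in sedentary mouse 16.

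Genes that are known to respond to running in other brain regions showed small differences. Of 27 neurotrophin and growth factor genes 11 were higher and 16 lower, with a median log2FC of −0.07 and none at an unadjusted p under 0.05. Bdnf had 17.2, 11.1 and 13.5 CPM in sedentary and 13.5, 14.6 and 14.4 CPM in exercise mice, with a log2FC of 0.02 and a 95% interval of −0.35 to 0.40. The 27 genes of the PGC-1 pathway of mitochondrial biogenesis had a median of 0.07, and the 21 clock genes a median of 0.01, which was 0.17 without mouse 195. Without mouse 16 the median of the neurotrophin list was 0.11, with 5 of the 27 genes at an unadjusted p under 0.05, 4 higher and 1 lower. In that setting 11.2% of all genes had such a p. Of 18 glucocorticoid response genes 13 were higher, with a median of 0.18, 0.05 without mouse 194, and 2 at an unadjusted p under 0.05. These were Mt2, a metallothionein gene with 38.2, 36.8 and 49.1 CPM in sedentary and 89.7, 55.5 and 43.7 CPM in exercise mice (log2FC 0.61, unadjusted p = 0.0188), and the kinase gene Sgk1 with 84.3, 71.3 and 113 CPM and 144, 105 and 108 CPM (log2FC 0.41, unadjusted p = 0.0301). Both had their highest value in exercise mouse 55, and both groups overlapped.

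Atxn1 itself, whose counts do not separate the expanded from the normal allele, had 162, 161 and 193 CPM in sedentary and 147, 193 and 184 CPM in exercise mice, with a log2FC of 0.02 and a 95% interval of −0.23 to 0.27. Cic, which encodes Capicua, had 291, 407 and 319.5 CPM in sedentary and 296, 295 and 289.97 CPM in exercise mice (log2FC −0.21, 95% interval −0.47 to 0.06). Rora, the nuclear receptor that Purkinje cells need for their maturation and that also belongs to the clock, had 375, 386 and 517 CPM in sedentary and 514, 589 and 473 CPM in exercise mice (log2FC 0.30, unadjusted p = 0.0486). It was the only one of the 12 tested genes of the ataxin-1 and Capicua list with an unadjusted p under 0.05. The 14 Capicua target genes had a median log2FC of −0.09, and 1 of them had an unadjusted p under 0.05. This was Spred3, an inhibitor of Ras signalling, with 36.5, 46.5 and 37.7 CPM in sedentary and 30.8, 31.4 and 31.6 CPM in exercise mice (log2FC −0.36, SE 0.13, unadjusted p = 0.0158), and the groups did not overlap.

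With all 6 mice and no covariate, markers of other cell types moved less than those of Purkinje cells or varied more between libraries. Of 17 granule cell genes 13 were higher, with a median log2FC of 0.17 and none at an unadjusted p under 0.05, and without mouse 16 the median was −0.04. With percent multimapping as a covariate the median was 0.20. In that setting 9 of the 17 were higher and 1 was lower at such a p, beside 3.22% and 3.5% of all genes. Gabra6, the granule cell GABA receptor subunit, had 284, 338 and 461 CPM in sedentary and 327, 529 and 478 CPM in exercise mice (log2FC 0.30, 95% interval −0.11 to 0.71), and the granule cell factor Neurod1 had 113, 185 and 229 CPM and 168, 278 and 205 CPM (log2FC 0.31). Of 19 Bergmann glia and astrocyte genes 17 were higher, 2 of them at an unadjusted p under 0.05, with a median of 0.15, which was −0.06 without mouse 55 and 0.35 without mouse 16. With the multimapping covariate 5 of these genes were higher at such a p and the median was 0.14. A2m, the gene of the protease inhibitor alpha-2-macroglobulin, had 74.2, 73.6 and 76.2 CPM in sedentary and 112, 92.4 and 82.2 CPM in exercise mice (log2FC 0.36, SE 0.12, unadjusted p = 0.0106), with no overlap of the groups. Gdf10, a Bergmann glia growth factor, had 63.6, 94.2 and 82.1 CPM in sedentary and 146, 115 and 76.4 CPM in exercise mice (log2FC 0.49, unadjusted p = 0.0422), and its groups overlapped. Eomes, which marks unipolar brush cells, had 4.80, 8.28 and 6.83 CPM in sedentary and 15.3, 7.63 and 8.66 CPM in exercise mice (log2FC 0.67), the high value being that of mouse 55. The median was 0.03 over 17 interneuron genes, −0.07 over 20 oligodendrocyte genes, −0.02 over 18 microglia genes and −0.09 over 21 endothelial and pericyte genes. These medians moved with mice 16 and 55. Without mouse 16 the median was 0.24 for interneurons, 0.59 for oligodendrocytes, where 11 of 20 genes had an unadjusted p under 0.05 and were higher (5.57% of all genes in that setting), and 0.38 for microglia. Without mouse 55 it was −0.05, −0.38 and −0.21.

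In the endothelial and pericyte list 6 genes were higher and 15 lower, with 1 in each direction at an unadjusted p under 0.05. The lower one was Tie1. The higher one was Ly6c1, which encodes a surface protein of brain endothelium and had 10.9, 14.1 and 12.1 CPM in sedentary and 16.4, 14.9 and 15.6 CPM in exercise mice (log2FC 0.34, SE 0.14, unadjusted p = 0.0268). The groups did not overlap for either gene.

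Choroid plexus genes varied with the library. All 18 were higher in exercise mice with a median log2FC of 0.50, none at an unadjusted p under 0.05, and the median was −0.02 without sedentary mouse 195 and −0.04 without exercise mouse 55. Their mean log2 CPM relative to the SCA1 sedentary mean was 1.03, 1.46 and −2.49 in sedentary and 2.00, 0.51 and 0.92 in exercise mice. Ttr, the most abundant of them, had 736, 1064 and 5.24 CPM in sedentary and 1449, 470.5 and 790.4 CPM in exercise mice. The 8 brainstem genes tested stood at 2.79, −0.24 and −2.55 in sedentary and 2.82, −2.69 and −1.71 in exercise mice, high in mice 16 and 55. Meningeal and fibroblast genes were lower in 15 of 16 with a median of −0.22, which was 0.01 without mouse 16 and −0.61 without mouse 55. Of 38 collagen genes 27 were lower with a median of −0.20, which was −0.05 without mouse 16 and −0.44 without mouse 55. Of 13 midbrain and forebrain genes 5 were higher and 8 lower (median −0.31), and of 5 erythrocyte genes 4 were higher (median 0.17), but the first median was 0.11 and the second −0.21 without mouse 16. The midbrain and forebrain list also holds En2, named above as a cerebellar marker, so its median does not read other tissue alone. The part of these tissues in the differences of other genes was not tested.

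**Figure D5:**
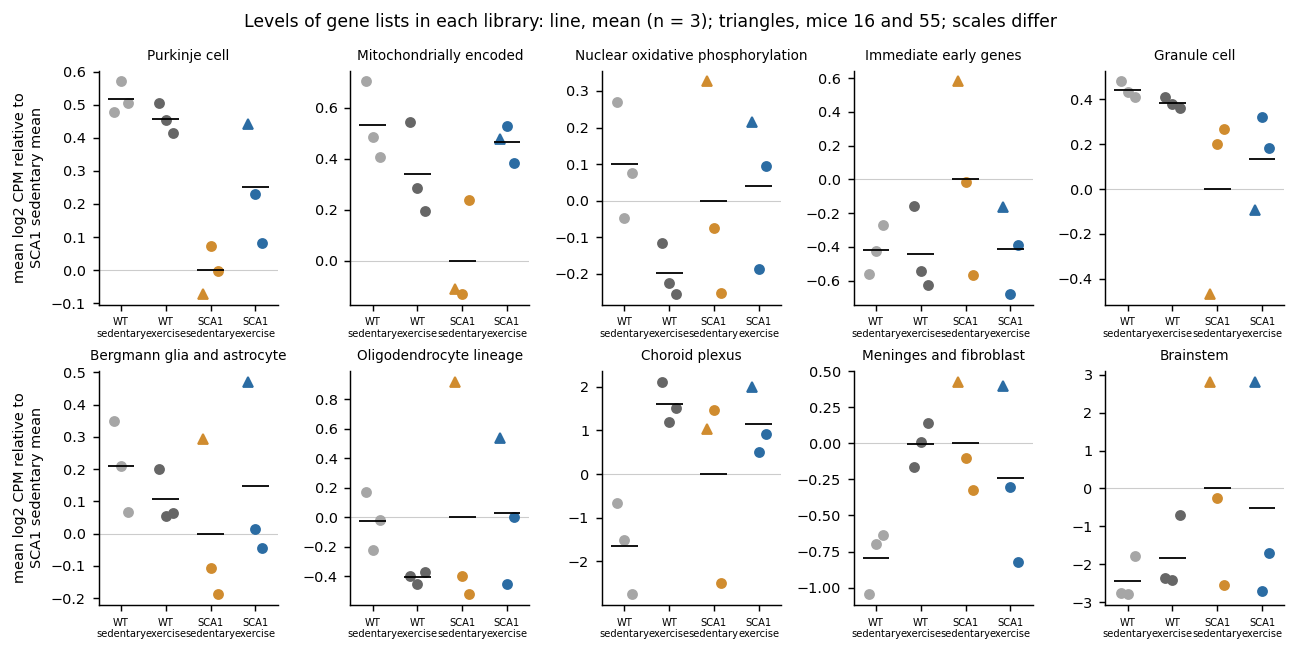
Mean log2 CPM of 10 gene lists in each of the 12 libraries, relative to the SCA1 sedentary mean, by group; lines are group means (n = 3), triangles are mice 16 and 55, and the vertical scales differ between panels. The Purkinje cell list lies at 0.08 to 0.44 in SCA1 exercise and −0.07 to 0.07 in SCA1 sedentary mice, whereas the choroid plexus list spans −2.49 to 1.46 among sedentary mice alone.

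Lists of general cell machinery had medians near 0 with all 6 mice. The median log2FC was 0.03 over 79 cytosolic ribosomal protein genes, 0.05 over 37 chaperone genes, 0.00 over 31 proteasome genes and 0.04 over 77 splicing regulator genes, with none at an unadjusted p under 0.05 in any of the 4 lists. Without mouse 16, where 11.2% of all genes had an unadjusted p under 0.05, the medians were 0.29 for ribosomal protein genes with 20 such genes, 0.21 for chaperones with 12, 0.19 for the proteasome with 7 and −0.03 for splicing regulators with 12. The 95% interval lay within 0.5 of 0 for 61 of the 77 splicing regulators. The median was 0.00 over 34 ion channel genes of Purkinje cell firing, among which Kcnma1 alone had an unadjusted p under 0.05, and 0.01 over 43 glutamate and GABA receptor genes.

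The genes called between SCA1 sedentary and WT sedentary mice by edgeR, 7 of 20341 (0.0344%), were Calb1, Sdk1, Nrg3, Hpcal1, Pcp4, Cep76 and Gcnt1. This comparison shares the SCA1 sedentary libraries with the exercise comparison, so opposite signs are favoured and the values are set side by side without a test. Going from the genotype log2FC to the exercise log2FC, the values were −1.91 and 1.28 for Gcnt1, −1.17 and 0.49 for Pcp4, −0.83 and 0.41 for Cep76, and −0.82 and 0.42 for Calb1. They were 1.43 and −0.48 for Sdk1. Nrg3, which encodes a neuregulin, had 50.3, 46.8 and 48.9 CPM in sedentary and 39.8, 43.6 and 44.2 CPM in exercise mice (0.61 and −0.19). Hpcal1, which encodes a neuronal calcium sensor, had 119.7, 139 and 124 CPM in sedentary and 162, 136 and 134 CPM in exercise mice (−0.67 and 0.17). The groups overlapped for Hpcal1 and not for Nrg3.

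The response of SCA1 mice to the wheel was also set beside that of WT mice, with which it shares no library. In WT mice edgeR called no gene (0.0%), 955 genes had an unadjusted p under 0.05 (4.69%) and DESeq2 called 63. Across 16828 genes of at least 1 CPM in SCA1 mice, the log2FC of SCA1 and of WT mice had a Pearson r of 0.188 and a Spearman rho of 0.0922, and 54.1% of genes had the same sign. Genes are not independent replicates, and the 2 responses share the normalization and tissue differences such as the choroid plexus genes, whose median was 3.21 in WT mice. The interaction of genotype and exercise called no gene by edgeR (0.0%), with 769 genes at an unadjusted p under 0.05 (3.78%).

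DESeq2 called the interaction for 2 genes (0.0057%), Zfp185 and the processed pseudogene Gm15383. Zfp185 had 2.68, 3.14 and 0.818 CPM in SCA1 sedentary and 2.18, 1.38 and 1.41 CPM in SCA1 exercise mice (log2FC −0.42), against 0.284, 0.342 and 0.453 CPM in WT sedentary and 3.20, 2.71 and 3.39 CPM in WT exercise mice. Its interaction log2FC was −3.55 with an adjusted p of 0.00173 by DESeq2 and −3.52 with an adjusted p of 0.882 by edgeR. Gm15383 had 3.35, 2.59 and 3.56 CPM in SCA1 sedentary and 1.75, 1.79 and 1.29 CPM in SCA1 exercise mice (log2FC −0.97), against 1.10, 1.37 and 1.66 CPM in WT sedentary and 3.42, 2.38 and 2.99 CPM in WT exercise mice. Its interaction log2FC was −2.07 with an adjusted p of 0.00943 by DESeq2 and −2.06 with an adjusted p of 0.882 by edgeR. As a pseudogene it may share read pairs with its parent gene, and its counts are uncertain. In Zfp185 most of the interaction lay between the WT groups, whereas Gm15383 differed in opposite directions in the 2 genotypes.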

How the data were processed

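Total RNA of the cerebellum of 12 mice was depleted of ribosomal RNA, prepared with a directional kit and sequenced as read pairs. Per the submitters' processing notes, reads were checked with FastQC 0.11.9, trimmed with fastp 0.24.0 and aligned with STAR 2.7.10a to GRCm39. The authors deposited the counts of read pairs per gene that STAR wrote, without normalization. The annotation behind the counts is not given in the sources used here.

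The 4 summary lines were dropped and the reverse-strand counts of 56941 genes were used, since 5.61% to 6.01% of stranded counts in the SCA1 libraries were on the forward strand. Ensembl IDs were matched to GENCODE M39, which holds 56323 of them and lacks 618. Genes were filtered with filterByExpr, which kept 20341, and scaled by TMM in edgeR 4.0.16 (R 4.3.3). A quasi-likelihood model of the 4 groups was fitted to all 12 libraries, with a common biological coefficient of variation of 0.219, and p values were adjusted by the Benjamini-Hochberg method. TMM library sizes entered CPM. For log2 CPM the prior count was 2. The mean log2 CPM of a list was taken over its tested members. DESeq2 1.42.0 was an alternative. The fits were tested on simulated data.

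Named genes were those called by edgeR or DESeq2 in the SCA1 exercise, genotype or interaction comparison, Atxn1, the 12 higher and 12 lower genes described in the text, and anchor or extreme members of the 29 lists. Other list members (A2m, Ly6c1 and Spred3 among them) and promoter sequences were named after their values were seen. The libraries and lists were chosen with earlier results of these data known. Lists were described by counts and medians, with no test of a list. Alternatives were other tools, size factors, filters, strands and covariates, mice 16 and 55 left out, and each mouse left out. Splicing, behaviour and pathways were not analysed here. Of the Purkinje cell list, 1 gene counts in its totals but its values are not reported here.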

Additional observations from a re-analysis of the deposited data

How the results depend on the processing

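No gene was called in SCA1 exercise against SCA1 sedentary mice by edgeR in any setting, and DESeq2 on all 12 libraries called 1. At an unadjusted p under 0.05, the 441 genes became 130 by edgeR and 150 by DESeq2 on the 6 SCA1 libraries alone, 682 with genes of at least 1 count, 1368 with percent multimapping as a covariate, 796 with mouse number bands as a block, 1802 without mice 16 and 55, and 312 to 2326 without 1 mouse. In WT exercise against WT sedentary mice the count of 0 became 63 by DESeq2, 45 with genes of at least 1 count, 122 with the multimapping covariate, 33 with the bands, 64 without mice 16 and 55 and 0 to 19 without 1 mouse. The interaction gave 2 by DESeq2, 3 with the multimapping covariate and 0 to 1 without 1 mouse. The 7 genes of SCA1 sedentary against WT sedentary mice became 203, 76, 294, 55 and 205 in the order of the 5 WT settings above, 2 with chromosome Y expression as a covariate and 0 to 42 without 1 mouse. The cause was not tested. Of the 66 genes given a log2FC, 60 kept its sign throughout. These include the higher and lower genes chosen for non-overlap, whose sign could hardly turn when mice were left out. The sign turned for Foxp2 (0.16) and Arc (0.087) without mice 16 and 55, for Bdnf (−0.037) with the bands and for mt-Nd6 (0.061) with unstranded counts. Leaving out 1 SCA1 mouse gave −0.31 to 0.15 for Foxp2, −0.36 to 0.023 for Arc, −0.10 to 0.21 for Bdnf, −0.48 to 0.23 for mt-Nd6, −0.077 to 0.14 for Atxn1 and −0.0080 to 1.30 for Ttr. No paired analysis was possible because each mouse number occurs once and the groups share none. With 3 mice a group, the 95% interval lay within a log2FC of 1 for 71.7% of genes.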
